A study of Mus musculus with 24 samples.

Results

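The lysosomal cathepsins described here were *Ctsa*, *Ctsb*, *Ctsc*, *Ctsd*, *Ctsh*, *Ctsk*, *Ctsl*, *Ctso*, *Ctss* and *Ctsz*, chosen by name as the rows of the array table annotated to exactly 1 of these symbols. Each of the 10 genes had 1 such row, out of 19938 genes with a row of their own. The arrays (Affymetrix, Mouse Gene 1.0 ST) measured RNA from the left lung lobe of *Scnn1b*-Tg and WT mice at postnatal day (PND) 0, 3, 10 and 42, with 3 arrays for each genotype and age, 24 in all. The question put to the design was how gene expression in the lung changed with age and with the transgene. *Scnn1b*-Tg mice were congenic C57Bl/6N Tac males carrying a transgene that overexpresses the beta subunit of the epithelial sodium channel in airway club cells, and were sampled untreated at PND 0, 3, 10 and 42. WT mice were male littermates without the transgene, of the same background, facility and ages. The study's methods describe RNA of 3 mice pooled for each array, whereas the labels name 2 animals on nearly every array, with a single animal on *Scnn1b*-Tg PND 42 replicate 3, so n counts arrays and not mice. Because the transgene acts in club cells and the RNA came from the whole lobe, fewer cells of a type and less RNA per cell cannot be told apart in any value below.

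Cathepsins are proteases made as inactive precursors, tagged with mannose 6-phosphate, carried to the lysosome and activated in its acid interior. *Ctsb*, *Ctsc*, *Ctsh*, *Ctsk*, *Ctsl*, *Ctso*, *Ctss* and *Ctsz* encode papain-like cysteine proteases, *Ctsd* an aspartic protease and *Ctsa* a serine carboxypeptidase that also protects lysosomal sialidase and beta-galactosidase. In lung, alveolar macrophages are known for a rich supply of several of them, and type II cells use cathepsin H in the maturation of surfactant proteins.

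A level is the log2 of a gene's normalized probe intensity, so that a difference of 1 is a 2-fold difference, and levels of different genes, which rest on different probes, are not compared. Differences were tested with limma over all 21789 rows with 1 gene, with p values adjusted by Benjamini-Hochberg within each comparison. A gene is said to rise, fall or be higher or lower where its adjusted p was at most 0.05, and to be called where the difference was also at least 2-fold, and SE and CI are those of the fit. The transgene was seen on every array: *Scnn1b* lay between 9.62 and 10.94 log2 in *Scnn1b*-Tg lungs, against 6.37 to 8.22 log2 in WT lungs. Arrays of a group correlated at 0.963 to 0.996.

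At PND 42 all 10 cathepsins had a higher mean in *Scnn1b*-Tg than in WT lungs, against 50.5% of all rows with a positive difference, and 5 of them passed the test. These were *Ctsk*, *Ctsd*, *Ctss*, *Ctsb* and *Ctsz*, of which *Ctsk* and *Ctsd* were called. Over all rows tested, 0.909% passed at this age and 0.34% were called, and 0.817% passed as higher. The median difference of the cathepsins was 0.65 log2, between 0.16 log2 for *Ctso* and 3.27 log2 for *Ctsk*, against a median of 0.0023 log2 over all rows.

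*Ctsk*, the collagen-degrading protease best known from osteoclasts, had 9.38, 9.52 and 8.87 log2 in *Scnn1b*-Tg lungs at PND 42, against 6.08, 5.91 and 5.97 log2 in WT lungs. The lowest *Scnn1b*-Tg array therefore stood far above the highest WT array. The difference was 3.27 log2 (SE 0.21, adjusted p = 3.87e-09), or 9.66-fold (95% CI 7.10 to 13.1). *Ctsd*, the aspartic protease that also opens other cathepsin precursors, had 12.52, 12.99 and 12.48 log2 in *Scnn1b*-Tg lungs at this age, against 11.59, 11.45 and 11.23 log2 in WT lungs, again with no overlap. It was higher by 1.24 log2 (SE 0.14, adjusted p = 2.51e-05), or 2.36-fold (95% CI 1.92 to 2.90). Repeating the quantile normalization lowered this difference to 0.98 log2, just under the 2-fold limit.

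*Ctss*, the protease that trims the invariant chain of class II molecules, had 10.51, 10.81 and 10.73 log2 in *Scnn1b*-Tg lungs at PND 42, against 9.82, 9.72 and 9.60 log2 in WT lungs. The groups did not overlap, and the difference of 0.97 log2 (SE 0.13, adjusted p = 0.000108) fell just short of 2-fold. *Ctsb*, an endopeptidase that also removes dipeptides from the C terminus, had 10.21, 10.40 and 10.11 log2 in *Scnn1b*-Tg lungs, against 9.63, 9.49 and 9.47 log2 in WT lungs. This was 0.71 log2 higher (SE 0.15, adjusted p = 0.0153), also without overlap. *Ctsz*, a carboxypeptidase, had 10.35, 10.98 and 10.38 log2 in *Scnn1b*-Tg lungs, against 10.12, 9.74 and 9.94 log2 in WT lungs, a difference of 0.64 log2 (SE 0.15, adjusted p = 0.0465) to which *Scnn1b*-Tg replicate 2 gave the largest share. *Ctsz* passed in only 7 of the 24 fits that left out 1 array and had an adjusted p of 0.252 without *Scnn1b*-Tg PND 42 replicate 2. *Ctsb* did not pass without *Scnn1b*-Tg PND 42 replicate 2 (adjusted p = 0.103) or without WT PND 42 replicate 2 or 3 (0.0655 and 0.0739).

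**Figure D1:**
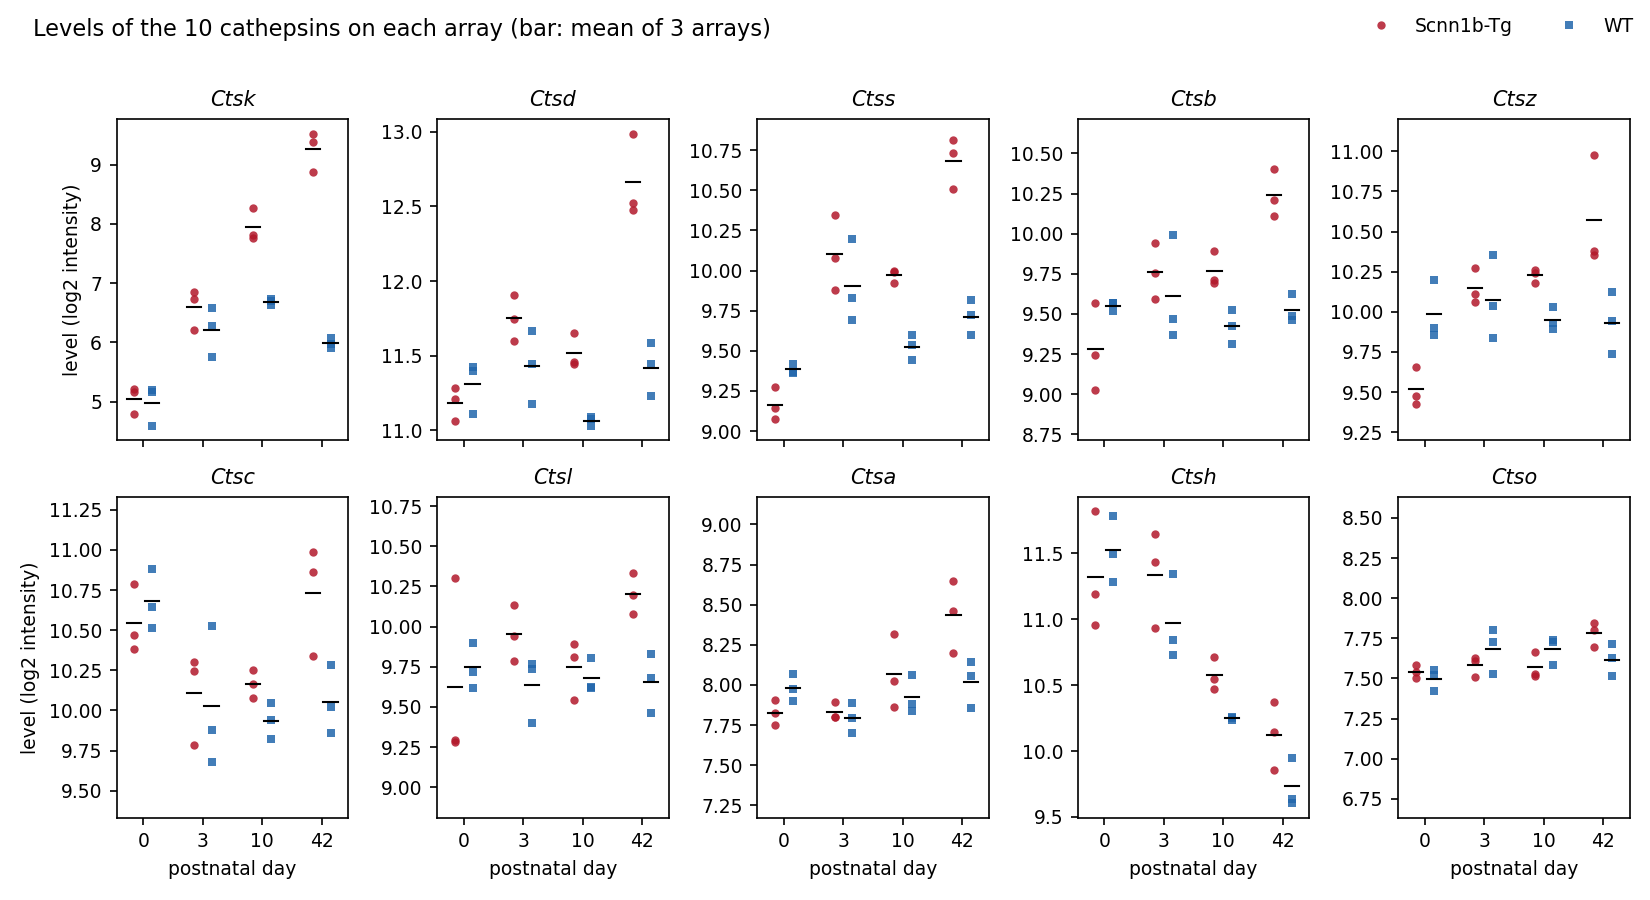
Level of each cathepsin (y axis, log2 intensity, a scale of its own for each gene) by postnatal day (x axis), with 1 point for each array, red circles for *Scnn1b*-Tg and blue squares for WT, and a bar at the mean of 3 arrays. *Ctsk* climbs at each age in *Scnn1b*-Tg lungs to a mean of 9.26 at PND 42, against 5.99 in WT lungs, while *Ctsh* falls with age in both genotypes.

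The other 5 cathepsins did not pass at PND 42 with all arrays. In single fits that left out 1 array, *Ctsa* passed without *Scnn1b*-Tg PND 42 replicate 1 (adjusted p = 0.0274). *Ctsc* passed without *Scnn1b*-Tg PND 42 replicate 3 (0.0411) and *Ctsl* without *Scnn1b*-Tg PND 0 replicate 1 (0.0451). *Ctsc*, the dipeptidyl peptidase that activates serine proteases of leukocyte granules, had 10.86, 10.99 and 10.34 log2 in *Scnn1b*-Tg lungs, against 10.28, 10.02 and 9.86 log2 in WT lungs (difference 0.67 log2, SE 0.20, adjusted p = 0.126). *Ctsl*, an endopeptidase of broad expression, had 10.08, 10.33 and 10.20 log2 in *Scnn1b*-Tg lungs, against 9.83, 9.68 and 9.46 log2 in WT lungs (difference 0.55 log2, SE 0.19, adjusted p = 0.264). *Ctsa* had 8.20, 8.65 and 8.46 log2 in *Scnn1b*-Tg lungs, against 8.06, 7.86 and 8.14 log2 in WT lungs (difference 0.42 log2, SE 0.12, adjusted p = 0.126). In these 3 genes every *Scnn1b*-Tg array lay above every WT array without the difference passing, so that 8 of 10 cathepsins did not overlap at PND 42, against 6.67% of all rows that were higher without overlap. *Ctsh* and *Ctso* overlapped between the genotypes, differing by 0.39 log2 (SE 0.21, adjusted p = 0.555) in *Ctsh*. For *Ctso* the difference was 0.16 log2 (SE 0.09, adjusted p = 0.578). The 95% CI of the *Ctsh* difference reached 0.83 log2, so a true difference of up to nearly that size lies within the interval.

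The stretches before the start sites of *Ctsk* and *Ctsd*, the cathepsins called at PND 42, are shown with those of *Ctss*, the next in size of difference, and *Ctsa*, which did not pass. *Ctsa* is no member without change, since it rose in *Scnn1b*-Tg lungs by 0.61 log2 between PND 0 and PND 42 (adjusted p = 0.000277). They are the 250 bases before the start in RefSeq on GRCm38.p6, 5′ to 3′ on the strand of the gene: *Ctsk* at chr3:95498960-95499209 on the plus strand, *Ctsd* at chr7:142387828-142388077 on the minus strand, *Ctss* at chr3:95526536-95526785 on the plus strand and the second of 2 *Ctsa* entries at chr2:164833523-164833772 on the plus strand. Capitals mark CACGTG, the E-box core that transcription factors of the TFEB family, which drive many lysosome genes, are known to bind.
Ctsk: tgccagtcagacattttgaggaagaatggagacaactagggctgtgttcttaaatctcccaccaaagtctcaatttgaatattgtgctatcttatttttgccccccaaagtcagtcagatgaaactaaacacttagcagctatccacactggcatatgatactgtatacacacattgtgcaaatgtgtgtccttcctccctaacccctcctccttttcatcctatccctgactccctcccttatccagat
Ctsd: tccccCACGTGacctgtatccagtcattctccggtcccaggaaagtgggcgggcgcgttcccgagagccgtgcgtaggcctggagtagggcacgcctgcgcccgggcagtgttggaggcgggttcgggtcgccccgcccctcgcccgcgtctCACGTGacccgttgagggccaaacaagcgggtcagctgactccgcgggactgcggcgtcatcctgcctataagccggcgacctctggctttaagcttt
Ctss: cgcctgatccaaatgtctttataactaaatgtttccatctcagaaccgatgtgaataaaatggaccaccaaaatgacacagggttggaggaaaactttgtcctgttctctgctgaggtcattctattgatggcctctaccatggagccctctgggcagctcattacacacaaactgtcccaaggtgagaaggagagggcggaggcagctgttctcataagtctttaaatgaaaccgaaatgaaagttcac
Ctsa: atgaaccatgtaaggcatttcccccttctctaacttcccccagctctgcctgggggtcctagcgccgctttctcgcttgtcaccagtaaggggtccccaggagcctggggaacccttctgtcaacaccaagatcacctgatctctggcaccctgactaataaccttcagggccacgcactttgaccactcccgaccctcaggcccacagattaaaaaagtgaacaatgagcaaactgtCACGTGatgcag

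The 2 cathepsins called at PND 42 differed in this window. *Ctsd* holds CACGTG 245 and 98 bases before its start and *Ctsa* 12 bases before, whereas *Ctsk* and *Ctss* hold none in the printed stretch. The other *Ctsa* entry, which is not printed, holds none. Windows of 250 bases before to 50 bases after a start were at hand for 8 of the 10 genes, *Ctsb* and *Ctsh* being without one here, and 9 windows in all were searched on both strands. CACGTG was in 3 of these 9, those of *Ctsa*, *Ctsd* and *Ctsl*, against 7.15% of 32851 windows of the same length. The longer TCACGTGA, each match of which also holds CACGTG, was in 2 of the 9, *Ctsa* and *Ctsd*, against 0.974% of all windows. TCATGTG was in *Ctsa* and *Ctss*, against 3.77% of all windows. A match describes these letters and is no measurement of binding.

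At PND 10 *Ctsk* was the single cathepsin that passed. It had 8.26, 7.75 and 7.82 log2 in *Scnn1b*-Tg lungs, against 6.73, 6.64 and 6.70 log2 in WT lungs. The gap between the groups was wide beside their spread, and the difference of 1.25 log2 (SE 0.21, adjusted p = 0.00667), or 2.39-fold (95% CI 1.75 to 3.25), was called, against 0.151% of all rows called and 0.427% that passed. Without *Scnn1b*-Tg PND 10 replicate 1 the difference was 1.10 log2 and its adjusted p 0.0895, and without WT PND 10 replicate 2 the values were 1.23 log2 and 0.0522.

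Of the other 9 cathepsins at PND 10, *Ctsd*, *Ctss* and *Ctsb* came nearest to passing. *Ctsd* had 11.46, 11.44 and 11.65 log2 in *Scnn1b*-Tg lungs, against 11.03, 11.09 and 11.08 log2 in WT lungs (difference 0.45 log2, SE 0.14, adjusted p = 0.202). *Ctss* had 9.92, 9.99 and 10.00 log2 in *Scnn1b*-Tg lungs, against 9.60, 9.54 and 9.44 log2 in WT lungs (difference 0.44 log2, SE 0.13, adjusted p = 0.138). *Ctsb* had 9.69, 9.71 and 9.89 log2 in *Scnn1b*-Tg lungs, against 9.52, 9.31 and 9.43 log2 in WT lungs (difference 0.34 log2, SE 0.15, adjusted p = 0.464). The remaining 6 differed by -0.11 log2 for *Ctso* to 0.33 log2 for *Ctsh*. In 7 of the 10 genes every *Scnn1b*-Tg array lay above every WT array at PND 10, against 8.67% of all rows, and the median difference was 0.30 log2 over the cathepsins and -0.0025 log2 over all rows.

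At PND 3 and PND 0 no cathepsin passed. At PND 3 the differences lay between -0.10 log2 (*Ctso*) and 0.39 log2 (*Ctsk*), and 9 of 10 were positive, against 0.0459% of all rows that passed, 0.0184% that were called and 50.4% that were positive. *Ctsk* had 6.85, 6.73 and 6.20 log2 in *Scnn1b*-Tg lungs at this age, against 6.27, 6.58 and 5.76 log2 in WT lungs, with overlap (difference 0.39 log2, SE 0.21, adjusted p = 0.741). WT PND 3 replicate 2 was the highest WT array of its age for 9 of the 10 cathepsins, *Ctso* being the exception, and its mean over 17 macrophage markers was 6.89 log2, against 6.37 and 6.47 log2 on the other WT arrays of that age. The macrophage list was not alone in this. The array's mean was also the highest over neutrophil genes (7.30 log2, against 6.49 and 5.75 log2) and type II markers (10.45 log2, against 10.16 and 9.85 log2). Over genes of dividing cells it was the lowest (5.97 log2, against 7.08 and 7.28 log2). The part of this array in the PND 3 values was not tested.

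At PND 0 the sign was mostly the other way round: 8 of 10 cathepsins had the lower mean in *Scnn1b*-Tg lungs, with a median difference of -0.15 log2, against 0.0229% of all rows that passed, 0.0138% that were called and 44.9% that were positive. The largest was in *Ctsz*, with 9.42, 9.65 and 9.48 log2 in *Scnn1b*-Tg lungs, against 10.20, 9.90 and 9.85 log2 in WT lungs. These did not overlap, but the difference of -0.47 log2 (SE 0.15) had an adjusted p of 0.796. *Ctsk* was near the limit of 5 log2 used for a dim gene at birth, with 4.79, 5.16 and 5.21 log2 in *Scnn1b*-Tg lungs, against 4.60, 5.16 and 5.21 log2 in WT lungs, and the array medians over all rows, between 4.787 and 4.996 log2, lay in the same range. A change of *Ctsk* counted from PND 0 therefore starts close to the level of an average row.

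**Figure D2:**
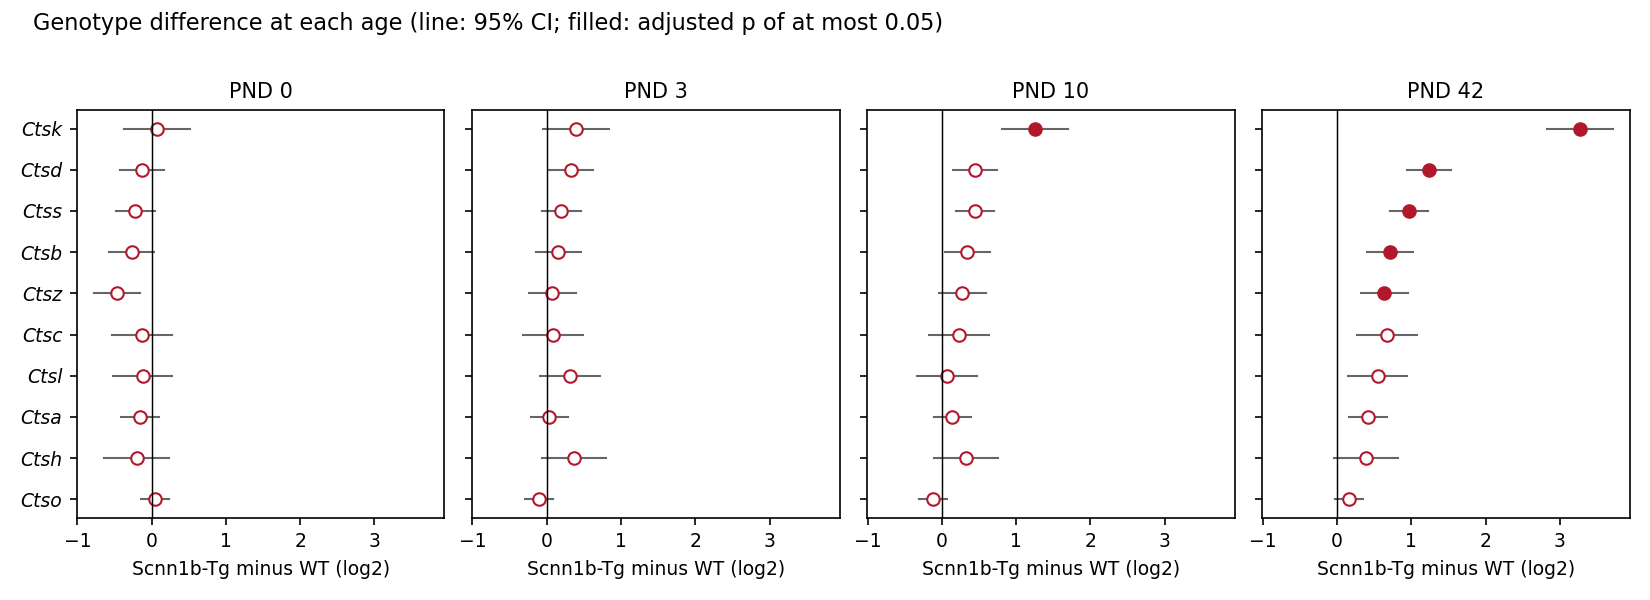
Difference in level between *Scnn1b*-Tg and WT lungs (x axis, log2, *Scnn1b*-Tg minus WT) for each cathepsin (y axis) in 1 panel for each age, with the 95% CI of the fit as a line and filled points where the adjusted p was at most 0.05. No point is filled at PND 0 and PND 3, *Ctsk* alone at PND 10, and *Ctsk*, *Ctsd*, *Ctss*, *Ctsb* and *Ctsz* at PND 42.

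*Ctsk* took a different course with age in each genotype. In *Scnn1b*-Tg lungs its mean was 5.05, 6.59, 7.94 and 9.26 log2 at PND 0, 3, 10 and 42, and it rose in each interval, by 1.54, 1.35 and 1.31 log2, each with an SE of 0.21 (adjusted p = 5.05e-06, 0.00131 and 7.73e-05). In WT lungs the means were 4.99, 6.20, 6.69 and 5.99 log2. There it rose by 1.22 log2 between PND 0 and PND 3 (SE 0.21, adjusted p = 8.58e-05), differed by 0.49 log2 between PND 3 and PND 10 (SE 0.21, adjusted p = 0.248) and fell by 0.70 log2 between PND 10 and PND 42 (SE 0.21, adjusted p = 0.0152). Without WT PND 42 replicate 2 this fall was 0.67 log2 and did not pass (adjusted p = 0.0521). The difference of the genotypes in the last interval was 2.02 log2 (SE 0.30, adjusted p = 0.00187), against 0.321% of all rows that passed and 0.225% that were called, and no other cathepsin passed there. Between PND 0 and PND 3 the same difference was 0.32 log2 (SE 0.30, adjusted p = 0.998) and between PND 3 and PND 10 it was 0.87 log2 (SE 0.30, adjusted p = 0.591). Neither passed, nor did any other cathepsin in these intervals, against 0% of all rows that passed in the first and 0.00918% in the next.

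Over the whole span, PND 42 against PND 0, 5 cathepsins changed differently in the 2 genotypes, against 0.303% of all rows that passed this test and 0.248% that were called. *Ctsk* was 4.20 log2 higher at PND 42 in *Scnn1b*-Tg lungs and 1.00 log2 higher in WT lungs, a difference of 3.21 log2 (SE 0.30, adjusted p = 3.48e-06). *Ctsd* was 1.47 log2 higher in *Scnn1b*-Tg lungs and differed by 0.11 log2 in WT lungs (difference 1.37 log2, SE 0.20, adjusted p = 0.00151). *Ctss*, at 1.52 log2 in *Scnn1b*-Tg lungs and 0.33 log2 in WT lungs, rose in both and differed by 1.19 log2 (SE 0.18, adjusted p = 0.00161), its rise in WT lungs passing in 19 of the 24 fits that left out 1 array (adjusted p of up to 0.111, without WT PND 42 replicate 1). *Ctsz* gave 1.05 log2 in *Scnn1b*-Tg lungs and -0.05 log2 in WT lungs (difference 1.10 log2, SE 0.21, adjusted p = 0.0229), and *Ctsb* 0.96 log2 in *Scnn1b*-Tg lungs and -0.03 log2 in WT lungs (difference 0.98 log2, SE 0.21, adjusted p = 0.0378). The *Ctsz* and *Ctsb* differences passed in 18 and 14 of these fits. These comparisons share the PND 42 and PND 0 arrays with those above. Part of the excess of *Ctsz*, *Ctsb*, *Ctss* and *Ctsd* lay in a lower *Scnn1b*-Tg mean at PND 0, a difference that did not pass. At that age *Ctsz* had a mean of 9.52 log2 in *Scnn1b*-Tg lungs and 9.98 log2 in WT lungs, and *Ctsb* 9.28 and 9.55 log2.

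Age alone, within a genotype, moved many genes, and the cathepsin counts have to be read against that. For PND 42 against PND 0 in *Scnn1b*-Tg lungs, 9 cathepsins passed (8 higher, *Ctsh* lower) and 5 were called, against 53.8% and 11.2% of all rows. Of these, *Ctsl* and *Ctso* passed in 21 and 20 of the 24 fits that left out 1 array (adjusted p of up to 0.108 and 0.0945). For the same ages in WT lungs 4 passed (*Ctsk* and *Ctss* higher, *Ctsc* and *Ctsh* lower) and 1 was called, against 56.3% and 11.4% of all rows. The medians were 0.78 log2 in *Scnn1b*-Tg lungs and 0.0049 log2 in WT lungs, with -0.010 and -0.031 log2 over all rows.

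*Ctsh* was the exception among the 10, falling with age whatever the genotype. It had 11.82, 11.19 and 10.95 log2 at PND 0 in *Scnn1b*-Tg lungs, 11.65, 11.44 and 10.93 log2 at PND 3, 10.47, 10.71 and 10.54 log2 at PND 10 and 9.85, 10.38 and 10.14 log2 at PND 42. In WT lungs it had 11.79, 11.50 and 11.28 log2 at PND 0, 10.84, 11.35 and 10.73 log2 at PND 3, 10.24, 10.26 and 10.25 log2 at PND 10 and 9.95, 9.60 and 9.64 log2 at PND 42. The PND 42 arrays lay below all PND 0 arrays in both genotypes, as in 32.2% of all rows in *Scnn1b*-Tg lungs and 35.1% in WT lungs. Over this span it fell by 1.20 log2 in *Scnn1b*-Tg lungs (SE 0.21, adjusted p = 6.92e-05). In WT lungs it fell by 1.79 log2 (SE 0.21, adjusted p = 5.17e-07), and both falls were called. Of all rows 8.7% were called as lower in *Scnn1b*-Tg lungs and 9.73% in WT lungs. The genotypes' falls differed by 0.59 log2 (SE 0.30, adjusted p = 0.778). *Napsa*, the gene of napsin A, another protease of surfactant processing, differed by -0.16 log2 in *Scnn1b*-Tg lungs (adjusted p = 0.414) and fell by 0.58 log2 in WT lungs (adjusted p = 0.0044) over the same span. Of 10 type II markers 3 rose and 3 fell in *Scnn1b*-Tg lungs, beside 22.6% of all rows that rose and 31.1% that fell. In WT lungs 0 of these markers rose and 6 fell, beside 23% and 33.3% of all rows.

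In the first 3 days of life the genotypes shared *Ctsk* and *Ctss* as rising cathepsins. In *Scnn1b*-Tg lungs *Ctss* rose by 0.94 log2 (SE 0.13, adjusted p = 3.2e-06), *Ctsz* by 0.63 log2, *Ctsd* by 0.57 log2 and *Ctsb* by 0.48 log2, so that 5 of 10 passed and 1 was called, against 49.4% and 10.3% of all rows. In WT lungs *Ctss* rose by 0.52 log2 (SE 0.13, adjusted p = 0.00191), while *Ctsc* fell by 0.65 log2 and *Ctsh* by 0.55 log2, so that 4 passed and 1 was called, against 46.6% and 9.75% of all rows. The fall of *Ctsh* did not pass in 4 fits that left out 1 array (adjusted p of up to 0.15, without WT PND 3 replicate 3), and that of *Ctsc* in 1 (0.0745, without the same array). The rise of *Ctsb* in *Scnn1b*-Tg lungs did not pass without *Scnn1b*-Tg PND 0 replicate 1 (0.0675) or PND 3 replicate 1 (0.0529). Both shares are near the background. No genotype difference in this interval passed, in any cathepsin or in any row.

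Between PND 3 and PND 10 little moved. *Ctsh* fell by 0.76 log2 in *Scnn1b*-Tg lungs (SE 0.21, adjusted p = 0.0461). In WT lungs it fell by 0.72 log2 (SE 0.21, adjusted p = 0.0476), and each of these passed in 10 of the 24 fits that left out 1 array. With *Ctsk* this made 2 cathepsins in *Scnn1b*-Tg lungs and 1 in WT lungs, against 3.27% and 5.03% of all rows. *Ctsk* was the 1 called in *Scnn1b*-Tg lungs and 0 were called in WT lungs, against 1.09% and 1.29% of all rows.

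PND 42 against PND 10 was the interval in which most cathepsins rose in *Scnn1b*-Tg lungs. There 6 of 10 passed, all higher, against 29.8% of all rows: *Ctsk* and *Ctsd* were called, against 5.17% of all rows, and *Ctss*, *Ctsc*, *Ctsb* and *Ctsa* rose by 0.71, 0.57, 0.47 and 0.37 log2. Leaving out 1 array ended the rise of *Ctsc* in 5 of 24 fits, of *Ctsa* in 4 and of *Ctsb* in 3, with adjusted p of up to 0.138, 0.151 and 0.0738, in each case without *Scnn1b*-Tg PND 42 replicate 2 among others. *Ctsd* rose by 1.14 log2 (SE 0.14, adjusted p = 4.1e-06), and by 0.98 log2 without *Scnn1b*-Tg PND 42 replicate 2. In WT lungs the fall of *Ctsk* was the single change that passed, against 30.4% of all rows, and 0 were called, against 5.54%. *Ctsd* differed there by 0.36 log2 (SE 0.14, adjusted p = 0.0647).

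**Figure D3:**
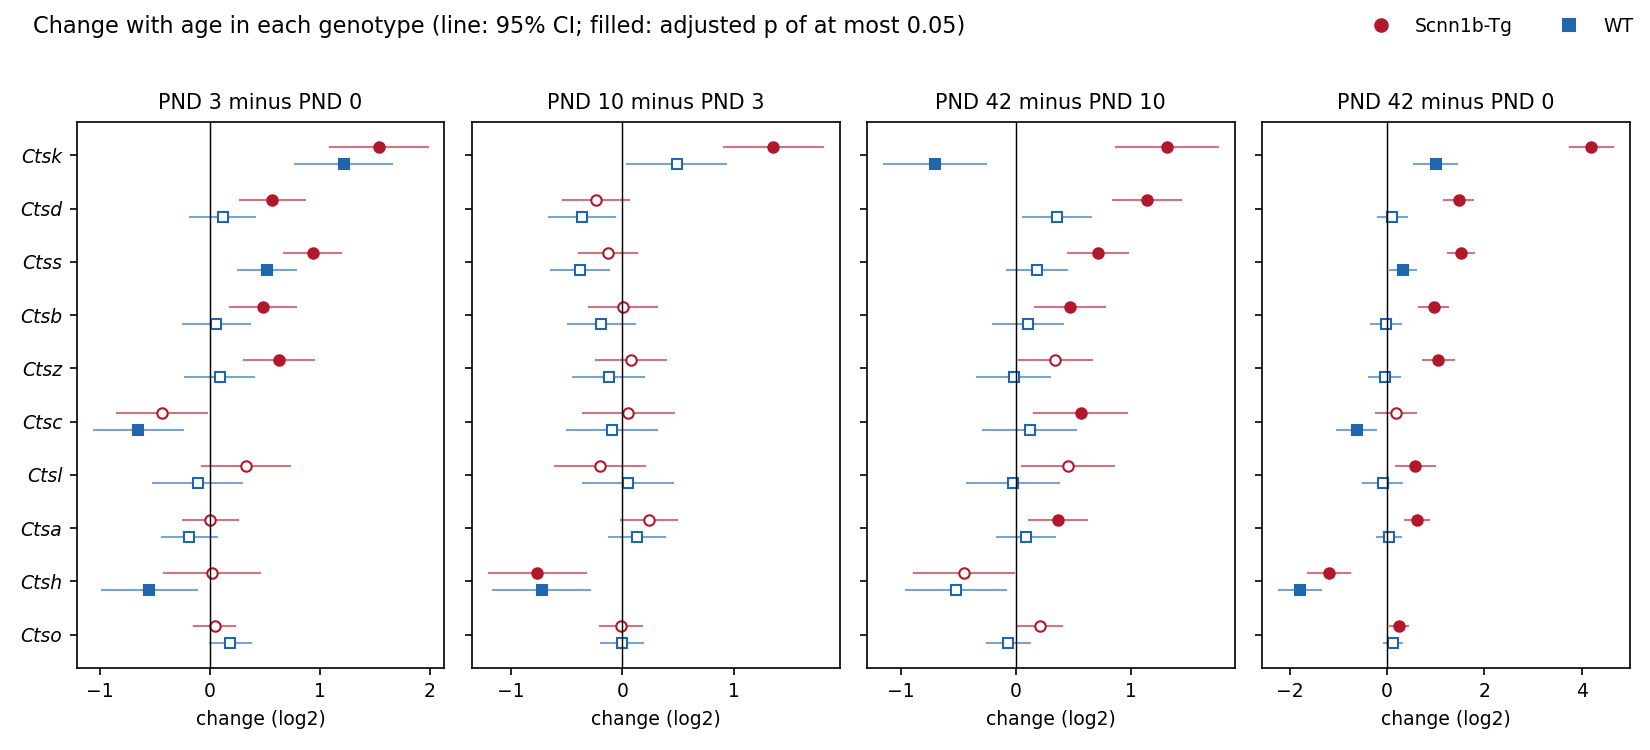
Change in level (x axis, log2, later minus earlier age, a scale of its own in each panel) of each cathepsin (y axis) over the 3 intervals and the whole span, with red circles for *Scnn1b*-Tg above blue squares for WT, the 95% CI of the fit as a line and filled symbols where the adjusted p was at most 0.05. The *Ctsk* symbols lie on opposite sides of 0 for PND 42 minus PND 10, at 1.31 in *Scnn1b*-Tg lungs and -0.70 in WT lungs.

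The members differed in where their spread over the 24 arrays lay. Of the variance of *Ctsk*, 55.1% separated the ages, 41.9% the genotypes at an age and 2.97% the replicate arrays, over a range of 4.92 log2. *Ctsd* had 49.0% between the genotypes and 8.96% between replicate arrays, and *Ctss* had 36.3% between the genotypes and 7.14% between replicate arrays. For *Ctsh*, 81.5% separated the ages. In contrast, 55.6% of the variance of *Ctsl* lay between replicate arrays. Its PND 0 values in *Scnn1b*-Tg lungs were 10.30, 9.28 and 9.29 log2, with replicate 1 about 1 log2 above the others, and without that array its PND 42 difference between the genotypes had an adjusted p of 0.0451. *Ctso*, a little-studied member, moved least, over 0.42 log2 in all. The closest pair of profiles was *Ctsb* and *Ctsz*, at a root mean square difference of 0.145 log2 over the 24 arrays once each gene was centred on its own mean, and the most distant was *Ctsh* and *Ctsk* at 1.78 log2.

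By the same measure, the genes outside the family nearest to *Ctsk* among 11922 were *Gpnmb* (0.529 log2), a lysosomal glycoprotein of lipid-laden macrophages, *Pigr* (0.624 log2), the epithelial receptor that carries IgA, and *Itgax* (0.656 log2), which encodes the integrin CD11c of alveolar macrophages and dendritic cells. *Gpnmb* had 8.55, 9.38 and 8.98 log2 in *Scnn1b*-Tg lungs at PND 42, against 5.94, 5.54 and 5.60 log2 in WT lungs. *Pigr* had 8.55, 9.07 and 8.41 log2 in *Scnn1b*-Tg lungs, against 6.64, 6.35 and 6.37 log2 in WT lungs. *Itgax* had 8.18, 9.45 and 8.69 log2 in *Scnn1b*-Tg lungs, against 7.05, 6.53 and 6.83 log2 in WT lungs. The genotypes did not overlap in any of the 3, whose means differed by 3.27, 2.22 and 1.96 log2. These genes were picked for a profile like that of *Ctsk* over the same arrays, so their differences are a description that the choice fixes in part. Nearest to *Ctsd* were *Tnfrsf26* (0.193 log2), *Plet1* (0.223 log2) and *Mpeg1* (0.227 log2), the last a pore-forming protein of macrophages, whose means differed by 1.04, 0.79 and 0.95 log2 at PND 42, picked in the same way.

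**Figure D4:**
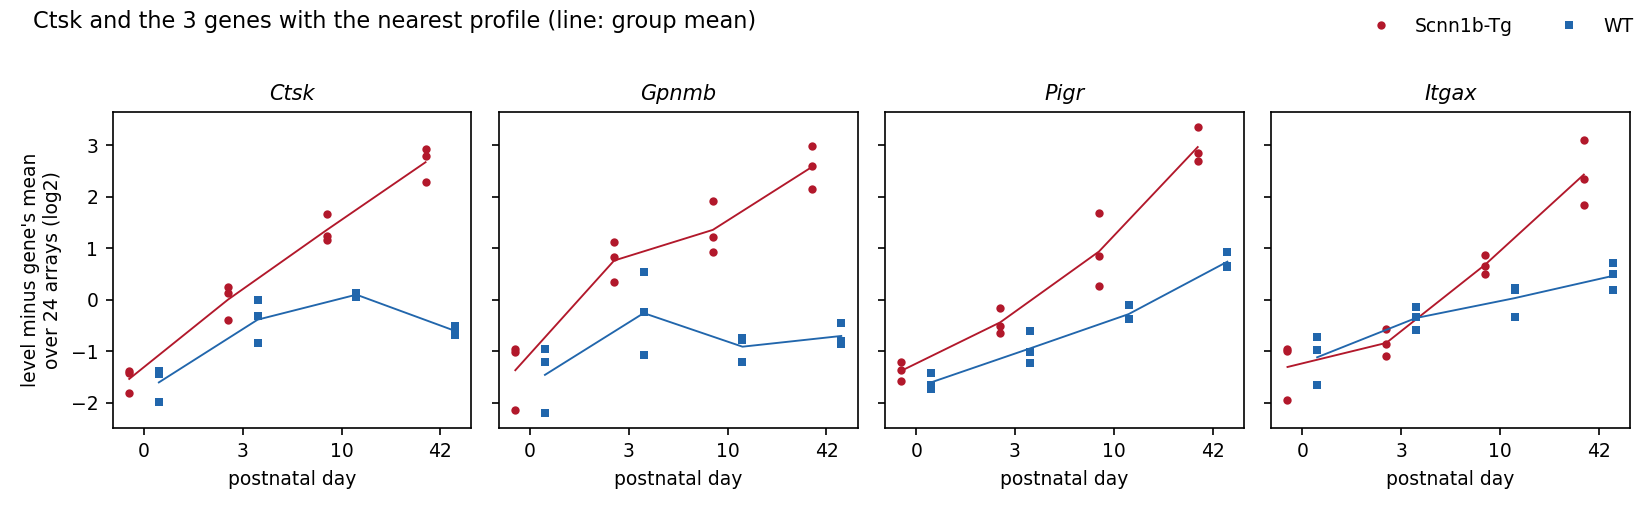
Level of *Ctsk* and of the 3 genes with the nearest profile (y axis, log2, each gene minus its mean over the 24 arrays) by postnatal day (x axis), with red circles for *Scnn1b*-Tg arrays, blue squares for WT arrays and lines through the group means. The 4 genes climb in *Scnn1b*-Tg lungs to their highest values at PND 42, while in WT lungs *Ctsk* and *Gpnmb* end low and *Pigr* and *Itgax* continue upwards.

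The other genes of the cathepsin system were read from lists of gene names, beside 0.909% of all rows that passed at PND 42. At PND 42, 0 of 11 other cathepsins passed, 10 of which were dim in every group (a mean of at most 5 log2), *Ctsf* being the exception (difference -0.40 log2, adjusted p = 0.425). Of 10 genes for inhibitors and the cathepsin-processing protease legumain, *Lgmn*, the gene of legumain, was higher by 0.94 log2 (adjusted p = 0.000516), with 9.96, 10.31 and 10.21 log2 in *Scnn1b*-Tg lungs, against 9.31, 9.14 and 9.23 log2 in WT lungs. The inhibitors did not pass, with *Cstb* (stefin B) at 0.81 log2 (adjusted p = 0.0537) and *Cst3* (cystatin C) at 0.10 log2 (adjusted p = 0.888). Of 10 genes read for tagging and sorting by mannose 6-phosphate, 1 passed: *Gnptab*, a subunit of the tagging enzyme, at 0.72 log2 (adjusted p = 0.0128). These 10 included *Igf2*, a growth factor gene that a synonym put in the place of a listed name and that is not a sorting gene. The receptor *Igf2r* differed by 0.50 log2 (adjusted p = 0.149).

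Of 32 other lysosomal hydrolases 5 were higher in *Scnn1b*-Tg lungs at PND 42 and none lower: *Lipa* (acid lipase, 1.32 log2, adjusted p = 2.74e-05) and *Gla* (alpha-galactosidase, 1.27 log2, adjusted p = 0.000908) were called, and *Acp5*, *Gusb* and *Neu1* rose by 0.86, 0.69 and 0.54 log2. *Neu1* encodes the sialidase held by cathepsin A, and *Glb1*, the beta-galactosidase of that complex, differed by 0.10 log2 (adjusted p = 0.869). Of 17 lysosomal membrane and saposin genes 4 were higher, *Cd68*, *Psap*, *Laptm5* and *Cd63*, by 1.69, 0.94, 0.79 and 0.84 log2. Of 18 genes of the proton pump that acidifies the lysosome 4 were higher, *Atp6v1b2*, *Tcirg1*, *Atp6v0a1* and *Atp6v1c1*, by 0.80, 0.87, 0.85 and 0.62 log2. None of these lists had a lower member that passed, and 0.817% of all rows passed as higher. Their medians were 0.31, 0.24 and 0.35 log2, beside 0.65 log2 for the cathepsins and 0.0023 log2 over all rows.

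Of 6 transcription factors known to bind lysosome genes, *Tfec* was higher by 0.98 log2 at PND 42 (adjusted p = 0.00179), with 5.11, 5.86 and 5.68 log2 in *Scnn1b*-Tg lungs, against 4.70, 4.41 and 4.60 log2 in WT lungs, where it was dim. *Tfeb*, *Tfe3* and *Mitf* differed by -0.07, 0.05 and -0.08 log2 and did not pass. Among the downstream partners, 0 of 10 granule serine proteases that cathepsin C activates passed, 9 of them dim in both genotypes at PND 42, and 1 of 9 class II presentation genes did, *Cd74*, the invariant chain cut by cathepsin S (0.65 log2, adjusted p = 0.0305). Of 7 surfactant genes 0 passed, with differences between 0.18 and 0.57 log2.

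The same lists can be read over age beside all rows, of which 22.6% rose and 31.1% fell between PND 0 and PND 42 in *Scnn1b*-Tg lungs, and 23% rose and 33.3% fell in WT lungs. For PND 42 against PND 0 in *Scnn1b*-Tg lungs 19 of the 32 hydrolases rose and 2 fell, against 9 that rose and 11 that fell in WT lungs. Of the 18 proton pump genes 8 rose and 2 fell in *Scnn1b*-Tg lungs, against 2 that rose and 7 that fell in WT lungs. Of the 10 genes read for mannose 6-phosphate tagging and sorting 1 rose and 5 fell in *Scnn1b*-Tg lungs, against 0 that rose and 7 that fell in WT lungs. These 10 included *Igf2*, which is not a sorting gene. The receptor *Igf2r* fell by 1.73 log2 in *Scnn1b*-Tg lungs and by 2.20 log2 in WT lungs. The total of proton pump genes that passed, 10 of 18 in *Scnn1b*-Tg lungs and 9 of 18 in WT lungs, was near that of all rows. All 9 class II genes rose in *Scnn1b*-Tg lungs and 8 of 9 in WT lungs, *Cd74* by 4.08 log2 in *Scnn1b*-Tg lungs and by 3.06 log2 in WT lungs. The genotype difference in the change from birth to PND 42 passed for *Cd74* (1.02 log2, adjusted p = 0.029), *Lgmn* (0.97 log2, adjusted p = 0.031), *Lipa* (1.64 log2, adjusted p = 0.000458), *Gla* (1.58 log2, adjusted p = 0.00839) and *Psap* (1.17 log2, adjusted p = 0.00554). Over all rows 0.303% passed this test. These genes were picked from their lists with their values known and do not stand for the other members.

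Of 17 macrophage markers 3 were higher at PND 42 and none lower, against 0.817% of all rows that passed as higher. The mean over the list is given for each array, with no test. That mean was 7.06, 7.68 and 7.43 log2 in *Scnn1b*-Tg lungs at PND 42, against 6.71, 6.66 and 6.85 log2 in WT lungs. At PND 10 it lay between 6.73 and 7.05 log2 in *Scnn1b*-Tg lungs, against 6.35 to 6.46 log2 in WT lungs, and it overlapped at PND 3. At PND 0 it was 6.05 to 6.35 log2 in *Scnn1b*-Tg lungs, against 6.32 to 6.40 log2 in WT lungs. The 3 that passed at PND 42, *Cd68*, *Itgax* and *Mrc1*, were all called, and *Adgre1* and *Csf1r*, which most macrophages express, differed by 0.52 and 0.31 log2 (adjusted p = 0.352 and 0.69). *Msr1* was dim in *Scnn1b*-Tg lungs at that age, and *Marco* and *Msr1* in WT lungs.

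Of 10 genes of lipid-laden macrophages 4 passed at PND 42, *Mmp12*, *Gpnmb*, *Trem2* and *Plin2*, with 4.34, 3.27, 0.84 and 0.79 log2, and the list's median was 0.96 log2. For this and the other marker lists at PND 42, 0.909% of all rows passed. At PND 10 *Mmp12* (1.98 log2, adjusted p = 0.00125), *Gpnmb* (2.27 log2, adjusted p = 0.0061) and the macrophage marker *Cd68* (1.13 log2, adjusted p = 0.0363) were already higher, beside *Ctsk*. Over all rows 0.427% passed at that age. These genes were picked from the lipid-laden macrophage and macrophage lists with their values known and do not stand for the other members. Of 8 osteoclast genes, *Acp5* alone passed at PND 42, and *Calcr*, *Oscar*, *Ocstamp* and *Dcstamp* were dim in every group. Of 8 club and goblet cell genes 3 passed, *Clca1*, *Muc5ac* and *Agr2*, with 4.05, 1.20 and 0.80 log2. Of 8 dendritic cell genes 2 passed, *Ly75* (1.58 log2, adjusted p = 4e-05) and *Flt3* (0.54 log2, adjusted p = 0.0196), and *Xcr1* and *Clec9a*, which mark a subset of conventional dendritic cells, were dim in every group. The mean over these 8 genes was 5.45, 5.55 and 5.50 log2 in *Scnn1b*-Tg lungs at PND 42, against 5.17, 5.11 and 5.18 log2 in WT lungs, and the genotypes overlapped at PND 0, 3 and 10. Of 12 neutrophil genes 0 passed, and of 10 type II markers 0 passed, with a median of 0.37 log2. The part of macrophages and of dendritic cells in the cathepsin differences was not tested.

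**Figure D5:**
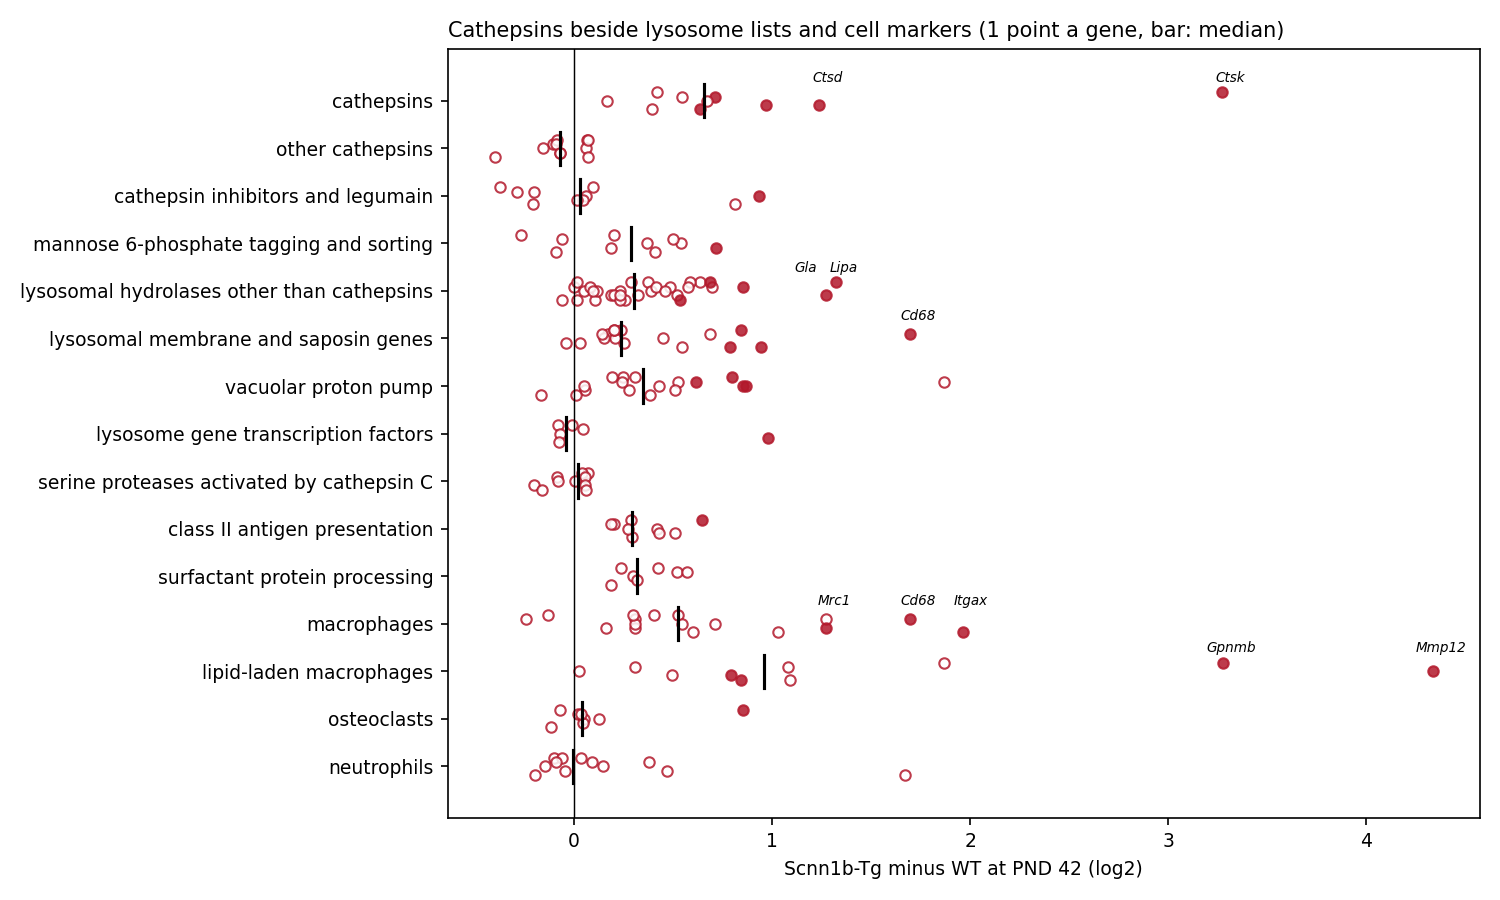
Difference in level between *Scnn1b*-Tg and WT lungs at PND 42 (x axis, log2, *Scnn1b*-Tg minus WT) for each gene of the cathepsins, of 10 lists around them and of 4 marker lists (y axis), with filled points where the adjusted p was at most 0.05, names for called genes and a bar at each list's median. The cathepsin median of 0.65 lies between those of the macrophage (0.52) and lipid-laden macrophage (0.96) lists.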

How the data were processed

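The deposited table holds log2 values of 35556 transcript clusters on 24 arrays. The authors made these log2 values with RMA background correction after adjustment for GC content and sequence, quantile normalization and median polish in Partek (version 6.5 in the submitters' processing notes), which compress differences of dim genes. No array was renormalized or left out, and array medians lay between 4.787 and 4.996 log2. Of the rows, 21789 name 1 gene and were tested, 1621 name several and 12146 none. Replicates are pools of animals, except that the labels name a single animal for *Scnn1b*-Tg PND 42 replicate 3. The p values therefore measure the spread between these arrays, and 3 arrays a group limit the precision.

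R 4.3.3 with limma 3.58.1 fitted 8 group means to all arrays (16 residual degrees of freedom, eBayes). The 16 contrasts compared genotypes at each age, ages within a genotype and the change with age between genotypes, with Benjamini-Hochberg adjustment over all tested rows of a contrast. The fit was tested on simulated data. The cathepsins, the lists and the tests were chosen with earlier results of these data known, and the study itself names *Ctsk* and *Ctsd* from these samples. All 10 cathepsins are named whatever their values. Of the lists, up to 4 members with the lowest p among those called are named, besides members that show a list's range, and for called cathepsins the 3 nearest profiles. List members that passed below 2-fold, and partners of the cathepsins, are also named, a choice made with their values known. A list gene with several rows is given by its brightest row. Of the listed names 2 were matched by a synonym, and a match of this kind put *Igf2* among the tagging and sorting genes. Promoters and their coordinates are from RefSeq on GRCm38.p6.

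Replicate numbers are shared between groups. Same-numbered arrays deviated together in all 3 pairs in 2 comparisons only, *Scnn1b*-Tg against WT at PND 0 and PND 3 against PND 0 in *Scnn1b*-Tg. Alternatives were other variance models, array weights, a replicate block, other row filters, other scalings, other fold limits and leaving out each array.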

Additional observations from a re-analysis of the deposited data

Results flagged for a closer look

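For 5 cathepsins the genotypes differed in the change between 2 ages by the test of that difference itself, in 6 results. Between PND 0 and PND 42 the change in *Scnn1b*-Tg lungs exceeded that in WT lungs by 3.21 log2 for *Ctsk* (adjusted p = 3.48e-06), 1.37 log2 for *Ctsd* (adjusted p = 0.00151), 1.19 log2 for *Ctss* (adjusted p = 0.00161), 1.10 log2 for *Ctsz* (adjusted p = 0.0229) and 0.98 log2 for *Ctsb* (adjusted p = 0.0378). For *Ctsd*, *Ctss*, *Ctsz* and *Ctsb*, part of this excess lay in a lower *Scnn1b*-Tg mean at PND 0, a difference that did not pass. Between PND 10 and PND 42 the excess for *Ctsk* was 2.02 log2 (adjusted p = 0.00187), where *Ctsk* rose in *Scnn1b*-Tg lungs and fell in WT lungs. Groups of 3 arrays are too small for a test of single arrays as outliers.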

How the results depend on the processing

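Of 440 refitted values of the 44 gene results that passed, none reversed and 412 still passed under the alternatives other than leaving out an array. Of 1056 values with 1 array left out, 958 still passed and none reversed. Counts of called cathepsins moved by over 1.5 times as follows. With quantile normalization repeated, 1 was called for *Scnn1b*-Tg against WT at PND 42 (2 before), 1 for PND 42 against PND 10 in *Scnn1b*-Tg (2 before), 2 for PND 42 against PND 0 in WT (1 before) and 2 for the genotype difference between PND 0 and PND 42 (4 before). With array medians subtracted, 2 were called for PND 3 against PND 0 in *Scnn1b*-Tg (1 before), where that scaling moved the median of all rows to 0.209 log2 in *Scnn1b*-Tg and 0.157 log2 in WT, and 2 for PND 42 against PND 0 in WT. The cause was not tested. A 1.5-fold and no fold limit gave 5 and 5 called for *Scnn1b*-Tg against WT at PND 42, 3 and 5 for PND 3 against PND 0 in *Scnn1b*-Tg, 2 and 4 for the same ages in WT, 2 and 2 for PND 10 against PND 3 in *Scnn1b*-Tg, 1 and 1 in WT, 1 and 1 for PND 42 against PND 10 in WT, and 3 and 4 for PND 42 against PND 0 in WT, all by construction. No fold limit gave 6 for PND 42 against PND 10 and 9 for PND 42 against PND 0 in *Scnn1b*-Tg.

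Leaving out 1 array gave 0 to 1 called for *Scnn1b*-Tg against WT at PND 10 (0 without *Scnn1b*-Tg PND 10 replicate 1 or WT PND 10 replicate 2), 2 to 3 at PND 42, 1 to 2 for PND 3 against PND 0 in *Scnn1b*-Tg (2 without *Scnn1b*-Tg PND 3 replicate 3), 1 to 2 for PND 42 against PND 10 in *Scnn1b*-Tg (1 without *Scnn1b*-Tg PND 42 replicate 2), 4 to 6 for PND 42 against PND 0 in *Scnn1b*-Tg, 1 to 2 in WT (2 without WT PND 0 replicate 2 or 3 or WT PND 42 replicate 2 or 3, *Ctsk* lying at 2-fold) and 3 to 5 for the genotype difference between PND 0 and PND 42.

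With the replicate number as a block, 0 of the 16 counts moved, 2 being called for *Scnn1b*-Tg against WT at PND 42 and 1 for PND 3 against PND 0 in *Scnn1b*-Tg. Over 36 same-numbered pairs the deviations correlated at -0.26 to 0.30, 9 above 0.1, and in 15 of them the same number was the best match. Another row of the same gene could not be tried, since each cathepsin has 1 row.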
